A study of Mus musculus with 5 samples.

Results

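Interleukin receptor genes were taken as all genes whose symbol is Il, a number, r, an optional letter a to g and an optional digit (for example Il2ra, Il7r and Il12rb2), which gave 36 gene identifiers with 34 symbols among the 32285 genes of the deposited matrices. Receptor subunits and decoys under other names (Il6st, Il1rap, Csf2rb and the like) fall outside the pattern and were described as a list of their own. Of the 36 identifiers, 24 had at least 100 unique molecular identifiers (UMIs) in the kept cells of all libraries together, 8 had fewer, and 4 had none.

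The cells came from flank tumours of Lewis lung carcinoma (LLC), a mouse lung cancer line, and were sorted as live (PI-) CD45+ cells, that is, leukocytes, before droplet-based single-cell RNA sequencing. In 2 libraries, named JAG2KO, the tumour cells carried a guide RNA for Jag2, which codes for a ligand of Notch receptors, and in 3 libraries, named Scramble, they carried a Scramble guide. The guides were in the injected tumour cells, whereas the sorted cells are mostly host cells that were found in the tumour. The mouse strain, sex and age, the number of tumour cell clones and the day of the endpoint at which tumours were taken are not given in the sources used here. Nothing in the labels says that each library came from its own animal, so every p-value below measures the spread between these libraries only.

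The 5 libraries held 84788907 to 111680641 UMIs in 10262 to 21854 deposited barcodes, where the design states that 10000 cells were loaded. JAG2KO 1 and 2 gave 9450 and 17791 kept cells, against 8742, 9502 and 7563 in Scramble 1, 2 and 3. JAG2KO 2 stood apart with a median of 2089 UMIs per kept cell, against 7596 to 8467.5 in the other libraries. Pairs of libraries shared 26 to 74 cell barcodes, at most 0.633% of the smaller library. Jag2 itself stood at 3.62 and 2.19 counts per 1000000 UMIs (CPM, over the summed UMIs of the kept cells) in JAG2KO and 4.0, 2.99 and 4.29 CPM in Scramble, levels of 3' tags in sorted host cells that do not check the guide. Cells were assigned to 19 cell types by marker genes that include no interleukin receptor, and 77.5% to 81.5% of the kept cells of a library passed a gate. The macrophage gate took 63.2% and 70.6% of kept cells in JAG2KO and 67.1%, 67.8% and 61.9% in Scramble. A gate is a set of cells with RNA of the markers, not a sorted population.

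Interleukins are secreted proteins by which immune and tissue cells signal to each other, and their receptors are mostly pairs or trios of membrane chains. A private chain such as IL2RA gives ligand specificity, while shared chains serve several cytokines. The common gamma chain IL2RG serves IL-2, IL-4, IL-7, IL-9, IL-15 and IL-21, IL2RB serves IL-2 and IL-15, and IL4RA serves IL-4 and IL-13. Most of these receptors signal through JAK kinases and STAT transcription factors, those for IL-1 and IL-18 through MYD88, and those for IL-17 through ACT1. In tumours, IL-2 and IL-7 receptors are known from T cells, the decoy receptor IL1R2 from neutrophils, and IL4RA from macrophages, where IL-4 and IL-13 drive so-called alternative activation.

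In the GRCm38 annotation of GENCODE, many members lie side by side. On chromosome 1, Il1r2 is followed by Il1r1 after 99.8 kb and by Il18r1 after a further 148 kb. On chromosome 2, Il2ra lies 12.1 kb from Il15ra, both coding for alpha chains of receptors that share IL2RB. On chromosome 7, Il4ra lies 24.0 kb from Il21r, and on chromosome 6, Il12rb2 lies 46.7 kb from Il23r and Il17re only 0.669 kb from Il17rc. By mean level, neighbours with at least 100 UMIs each did not share a leading cell type. Il2ra was highest in the regulatory T gate and Il15ra in the migratory dendritic cell gate, Il1r2 was highest in neutrophils and Il1r1 in fibroblasts, and Il4ra was highest in macrophages (in 3 of 5 libraries) and Il21r in CD8 T cells, which had enough cells in JAG2KO alone and led in neither of those 2 libraries. Of the members described below, 8 overlap another annotated gene model on the same strand, with which the authors' counting may have split reads. These are Il1r2 (Gm37347), Il1r1 (Gm38070), Il2ra (Gm37881), Il2rg (Gm20489), Il11ra1 (Galt), Il10rb (Gm21970), Il10ra (Mir7086) and Il31ra (Gm3226).

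The stretches before the start sites of 4 members that differed between JAG2KO and Scramble are shown, because these genes are expressed in different cell types and moved in different directions. Each is the 250 bases upstream of the start given by RefSeq (GRCm38.p6), 5′ to 3′ on the strand of the gene, and capitals mark matches to the STAT motif TTCNNNGAA or to TGGGAA, the core bound by RBPJ, the DNA-binding partner of Notch, on either strand. The windows are chr15:9529877-9530126 (minus strand) for Il7r, chr6:67376189-67376438 (minus strand) for Il12rb2, chr1:40085843-40086092 (plus strand) for Il1r2 and chr7:125552021-125552270 (plus strand) for Il4ra. RefSeq and GENCODE starts differ for some of these genes. By the GENCODE spans given below, the Il1r2 and Il7r windows lie within the gene and the Il4ra window lies partly within it.
Il7r: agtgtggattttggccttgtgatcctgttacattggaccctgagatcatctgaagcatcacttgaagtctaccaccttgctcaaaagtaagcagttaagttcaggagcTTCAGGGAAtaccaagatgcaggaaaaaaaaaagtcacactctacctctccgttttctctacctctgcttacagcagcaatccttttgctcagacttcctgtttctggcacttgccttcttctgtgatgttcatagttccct
Il12rb2: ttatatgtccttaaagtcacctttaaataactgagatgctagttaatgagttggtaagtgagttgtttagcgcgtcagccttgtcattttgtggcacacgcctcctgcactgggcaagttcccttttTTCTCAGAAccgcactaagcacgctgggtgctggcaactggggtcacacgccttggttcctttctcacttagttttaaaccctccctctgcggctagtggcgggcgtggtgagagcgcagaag
Il1r2: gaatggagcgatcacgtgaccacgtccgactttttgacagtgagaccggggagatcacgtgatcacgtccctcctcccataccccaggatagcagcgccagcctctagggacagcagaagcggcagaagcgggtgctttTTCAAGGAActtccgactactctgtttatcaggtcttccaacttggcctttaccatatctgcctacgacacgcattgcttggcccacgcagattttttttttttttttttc
Il4ra: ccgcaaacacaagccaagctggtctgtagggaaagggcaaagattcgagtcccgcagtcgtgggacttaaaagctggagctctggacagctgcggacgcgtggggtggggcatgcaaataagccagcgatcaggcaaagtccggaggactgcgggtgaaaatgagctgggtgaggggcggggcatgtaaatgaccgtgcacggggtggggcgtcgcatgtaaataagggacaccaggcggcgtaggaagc
Il7r, Il12rb2 and Il1r2 each held 1 match to the STAT motif and none to the RBPJ core, and Il4ra held neither. RefSeq gave 32 such windows for 27 of the 34 symbols. The STAT motif was in 5 of these 32 windows (15.6%) and in 7.02% of all 32851 windows of the same length, and the RBPJ core was in 8 of 32 (25%) and in 21.6% of all windows. Of the members called below, Il18r1 had 3 windows, a pair of which overlap, and each held an RBPJ core match. A match describes letters in a window and is not a binding site.

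Across gates, members of the same family parted by cell type, as the plot of mean levels by gate shows. Levels are CPM of the summed UMIs of a gate in a library with at least 20 such cells, and each gate was also compared with the macrophage gate of the same libraries by edgeR's quasi-likelihood test, in which 22 members were among 10176 genes tested. These comparisons rest on TMM scaling. Scaling by library totals in its place shifted the median member by -0.768 on the log2 scale in neutrophils, and by -0.295 (migratory dendritic cells) to 0.186 (regulatory T cells) in the other gates. The neutrophil gate had 12 of these 22 higher and 3 lower than the macrophage gate (background 28.4% of genes higher and 35.9% lower), and with library totals these counts were 8 and 6. The regulatory T gate had 12 higher and 7 lower (background 20.9% and 25.5%). CD4 T, CD8 T, other T and NK cells had 11, 11, 11 and 9 higher (background 14.4%, 21.2%, 22.8% and 22%) and 5, 7, 7 and 8 lower (background 16.2%, 22.5%, 24.4% and 26.1%). The other T gate is the remainder of T cells that met no rule for CD8, CD4, regulatory or gamma-delta T cells, and may mix these types. Foxp3 stood there at 5.54 to 178 CPM. In Scramble 2 the gate also held 715 CPM of fibroblast markers and 410 CPM of tumour-like markers.

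Among the other myeloid gates, migratory dendritic cells and monocytes had 9 members higher each (background 25.6% and 22.1%) and 5 and 3 lower (background 25.9% and 26.6%), and cDC2 cells had 7 higher and 4 lower (background 18.5% and 20.1%). The cDC1 gate, the other conventional dendritic cell type, had 1 higher and 9 lower (background 18.9% and 20.9%), and 2 higher without JAG2KO 1. Mast cells and basophils had 5 higher and 6 lower (background 9.3% and 12.4%), and 1 higher without JAG2KO 1. Fibroblasts and the tumour-like gate, cells with RNA of LLC tumour markers, had 4 higher each (background 29.3% and 31.0%) and 10 and 12 lower (background 29.1% and 33.3%), and without JAG2KO 1 the tumour-like gate had 2 higher.

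**Figure D1:**
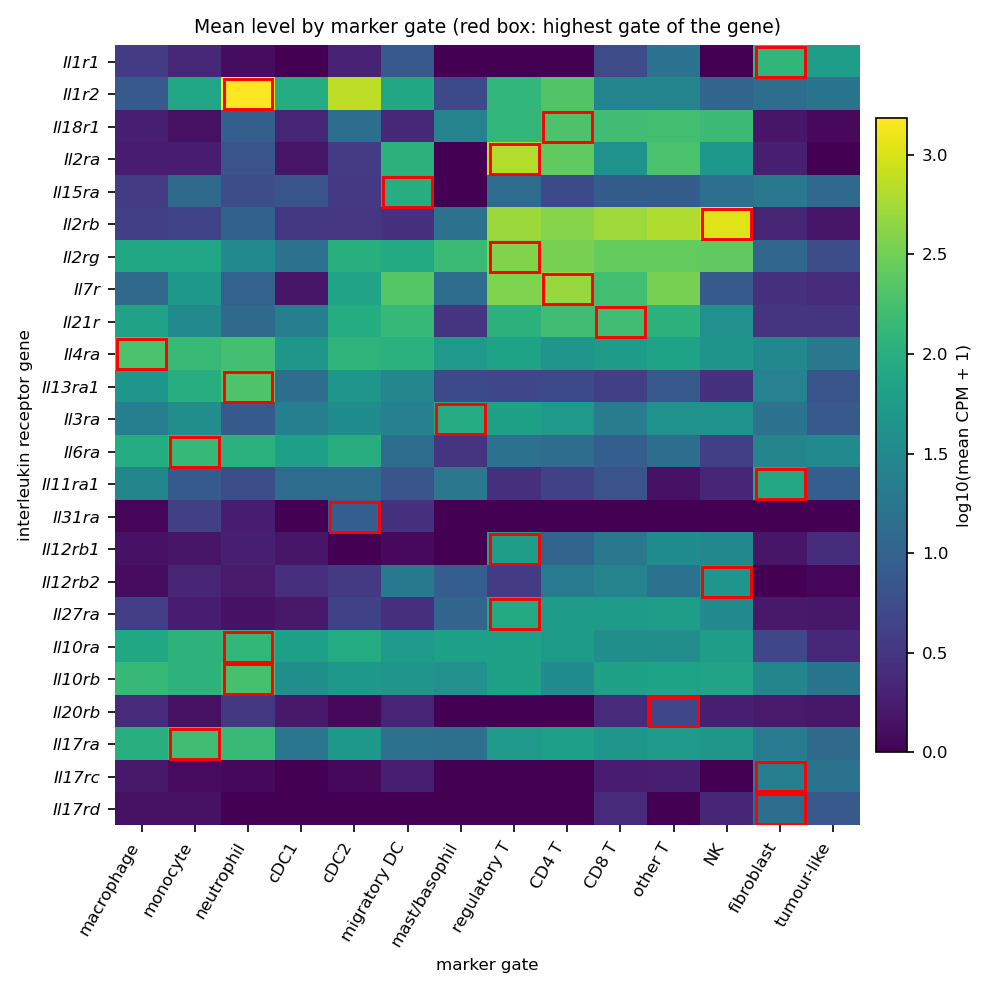
Mean CPM of the 24 members with at least 100 UMIs (down) in 14 marker gates (across), drawn as log10 of the mean CPM plus 1 over libraries with at least 20 cells of the gate, with the gate of the highest mean boxed in red. Il1r2 stands out in neutrophils (mean 1522 CPM), Il2rb in NK cells (mean 1065 CPM) and Il2ra in regulatory T cells (mean 652 CPM), while Il4ra, Il10rb and Il17ra are spread over the myeloid gates.

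In the IL-1 and IL-18 family, the decoy and the signalling receptor for IL-1 were carried by different cells. Il1r2, which binds IL-1 without signalling, averaged 1522 ± 133 CPM in neutrophils and 726 ± 198 CPM in cDC2 cells, against 6.69 CPM in macrophages (SD, n = 5 libraries). It was above the macrophage level by 8.59 ± 0.38 on the log2 scale in neutrophils and by 6.92 ± 0.36 in cDC2 cells (SE, adjusted p = 5.71e-27 and 2.28e-23, edgeR). The neutrophil gate held 38.9% of all Il1r2 UMIs and 1.17% of all UMIs. After thinning to 1000 UMIs per cell, which left out 11 to 74 neutrophils per library, a UMI of Il1r2 was seen in 69.1% and 68.4% of neutrophils in JAG2KO and in 65.3%, 61.3% and 67.5% in Scramble. Without thinning these shares were 79.0% and 76.0% in JAG2KO and 76.4%, 77.7% and 78.2% in Scramble, at median depths of 1142 to 2021 UMIs. NK cells, at median depths of 3327 to 4479 UMIs, had 0 in every library after thinning.

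Il1r1, the signalling IL-1 receptor, averaged 123 ± 15.5 CPM in fibroblasts (SD, n = 4) and was higher there than in macrophages by 5.67 ± 0.36 (SE, adjusted p = 6.09e-17, edgeR). It was also higher in the tumour-like gate by 4.65 ± 0.38 (adjusted p = 9.82e-14). Both gates hold few cells, 13 to 42 fibroblasts per library, since a CD45+ sort selects against them. The fibroblast gate also held RNA of the tumour-like markers. Their sum was 383 and 570 CPM in JAG2KO and 537 and 471 CPM in Scramble 2 and 3, against 12.8 to 43.8 CPM in macrophages. The part of tumour-cell RNA in the fibroblast levels given here was not tested. Il18r1, the ligand-binding chain for IL-18, was a lymphocyte gene with means of 199 CPM in CD4 T, 166 CPM in other T, 162 CPM in CD8 T and 149 CPM in NK cells. CD4 T and CD8 T cells were measured in JAG2KO alone. These 4 means lie within the spread between libraries of the other T gate, whose SD was 57.1 CPM over a range of 122 to 259 CPM. In NK cells Il18r1 was higher than in macrophages by 7.31 ± 0.34 (SE, adjusted p = 5.73e-26, edgeR).

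The IL-2 and IL-15 receptor chains separated regulatory T cells, NK cells and migratory dendritic cells. Il2ra, the alpha chain of the high-affinity IL-2 receptor and a marker of regulatory T cells, averaged 652 ± 182 CPM in the regulatory T gate (SD, n = 5). It was highest there in 5 of 5 libraries. That gate held 35.6% of Il2ra UMIs and 0.282% of all UMIs. Migratory dendritic cells, a type defined here by Ccr7, Fscn1 and related genes, carried it as well at 111 ± 29.3 CPM, above macrophages by 7.47 ± 0.38 (SE, adjusted p = 2.68e-23, edgeR). After thinning, an Il2ra UMI was seen in 15.8% and 15.2% of migratory dendritic cells in JAG2KO and in 12.2%, 7.69% and 6.67% in Scramble (without thinning 45.6% and 35.3%, against 46.3%, 38.5% and 21.3%, at median depths of 4471 to 6568 UMIs). The related cDC1 gate, with 30 to 40 cells per library at median depths of 8106 to 11179.5 UMIs, had 0 in every library after thinning.

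Il15ra, which presents IL-15 to neighbouring cells, was highest in migratory dendritic cells in 5 of 5 libraries at 95.7 ± 16.7 CPM (SD, n = 5), above macrophages by 5.43 ± 0.27 (SE, adjusted p = 8.95e-24, edgeR). Il2rb, the chain that signals for IL-2 and IL-15, was highest in NK cells in 5 of 5 libraries at 1065 ± 124 CPM, followed by other T cells at 634 ± 119 CPM. NK cells held 27.4% of its UMIs and 0.390% of all UMIs. Il2rg, the common gamma chain, was found in every gate of the plot, with 375 ± 158 CPM in regulatory T cells (SD, n = 5) against 78.1 CPM in macrophages, a log2 difference of 1.98 ± 0.18 (SE, adjusted p = 3.45e-14, edgeR).

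Il7r and Il21r, chains that pair with the common gamma chain, had high means in T cells and migratory dendritic cells, and Il21r was found in macrophages as well. Il7r, the IL-7 receptor that naive and memory T cells need for survival, averaged 495 CPM in CD4 T cells, measured in JAG2KO alone, 366 ± 76.1 CPM in regulatory T and 334 ± 147 CPM in other T cells (SD, n = 5). The CD4 T value is the mean of 351 and 639 CPM, and the JAG2KO libraries of the other T gate at 494 and 267 CPM overlap that range. Migratory dendritic cells followed with 220 ± 69.6 CPM, above macrophages by 4.60 ± 0.25 (SE, adjusted p = 1.23e-22, edgeR). NK cells did not differ from macrophages by the test (log2 difference -1.06 ± 0.69, adjusted p = 0.211). Il21r, the receptor for a cytokine of helper T cells, had means of 162 CPM in CD8 T, 161 CPM in CD4 T and 136 CPM in migratory dendritic cells, with both T gates measured in JAG2KO alone. Migratory dendritic cells of the same JAG2KO libraries stood at 164 and 180 CPM. Macrophages, which held most of all UMIs, averaged 67.2 CPM of Il21r, against 11.7 CPM of Il7r.

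Chains for IL-4 and IL-13 led by mean in myeloid gates, apart from the decoy Il13ra2. Il4ra, which both cytokines use, had the most UMIs of all members, 65848 in all, of which 85.6% lay in the macrophage gate that held 75.3% of all UMIs. Its mean was 188 ± 54.2 CPM in macrophages, 170 ± 31.9 CPM in neutrophils and 142 ± 12.1 CPM in monocytes (SD, n = 5). The macrophage SD pools JAG2KO and Scramble libraries, which did not overlap in that gate. Macrophages stood above neutrophils and monocytes within every Scramble library, whereas neutrophils stood above macrophages within both JAG2KO libraries. By the TMM-scaled test neutrophils were above macrophages by 0.61 ± 0.17 (SE, adjusted p = 0.00203, edgeR), whereas with library totals the sign turned (-0.15, adjusted p = 0.412). Il13ra1, the second chain of the receptor that binds IL-13, was highest in neutrophils in 5 of 5 libraries at 200 ± 12.4 CPM, against 46.6 ± 1.51 CPM in macrophages. The TMM-scaled log2 difference was 2.85 ± 0.15 (adjusted p = 2.49e-23, edgeR). Il13ra2, the IL-13 decoy, had 29 UMIs in all, 21 of them in fibroblasts.

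Receptors of the IL-6 and IL-12 families fell into a myeloid, a fibroblast-gate and a lymphoid set by mean level. Il6ra, the IL-6 binding chain, averaged 132 ± 16.6 CPM in monocytes and 91.6 ± 14.1 CPM in macrophages (SD, n = 5), a log2 difference of 0.70 ± 0.14 (SE, adjusted p = 2.81e-05, edgeR). Il11ra1, the IL-11 receptor, averaged 83.4 ± 56.7 CPM in fibroblasts (n = 4), above macrophages by 1.44 ± 0.21 (adjusted p = 5.95e-08). Its near copy Il11ra2 was at 0 under all 3 of its identifiers, so reads shared by the copies may be split or lost and the level of Il11ra1 is uncertain. Il31ra, an IL-31 receptor chain, was low everywhere and highest in cDC2 cells at 7.86 ± 4.18 CPM.

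In the lymphoid set, Il12rb1, shared by IL-12 and IL-23, and Il27ra, the IL-27 receptor, had their highest means in regulatory T cells at 58.2 ± 21.9 and 86.4 ± 36.9 CPM, and led there in 4 and 3 of 5 libraries. In JAG2KO, Il27ra was higher in other T cells (73.8 and 54.3 CPM) than in regulatory T cells (65.5 and 45.1 CPM). They stood above macrophages by 6.78 ± 0.44 and 4.57 ± 0.32 on the log2 scale (SE, adjusted p = 2.15e-18 and 2.69e-18, edgeR). Il12rb2, the chain that is particular to IL-12, was highest in NK cells in 5 of 5 libraries at 46.5 ± 19.5 CPM. CD8 T cells followed with 25.5 CPM in JAG2KO alone. Among myeloid gates, migratory dendritic cells had the highest mean of those measured in 5 libraries, with 18.6 ± 8.68 CPM and a difference from macrophages of 6.34 ± 0.46 (adjusted p = 1.94e-17). Il3ra, the IL-3 binding chain known from basophils, averaged 88.7 ± 64.1 CPM in the mast cell and basophil gate over the 3 libraries with enough cells, which is a wide spread, and was above macrophages by 2.34 ± 0.45 (adjusted p = 5.30e-05).

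The IL-10 receptor chains and Il17ra led by mean in neutrophils and monocytes. Il10ra and Il10rb, the 2 chains of the IL-10 receptor, averaged 126 ± 42.6 and 180 ± 43.9 CPM in neutrophils, against 79.3 ± 11.8 and 134 ± 17.3 CPM in macrophages (SD, n = 5). The TMM-scaled log2 differences were 1.31 ± 0.15 and 1.12 ± 0.14 (SE, adjusted p = 4.81e-11 and 7.29e-10, edgeR). They are larger than the CPM means imply, since library totals shifted the median member by -0.768 in neutrophils. Il17ra, the chain shared by IL-17 receptors, averaged 161 ± 16.4 CPM in monocytes and 99.0 ± 12.2 CPM in macrophages, a difference of 0.88 ± 0.17 (adjusted p = 1.69e-05). Its partner Il17rc had its highest mean in fibroblasts, with 22.5 ± 4.34 CPM (n = 4) and 5.37 ± 0.46 above macrophages (adjusted p = 3.01e-13). The tumour-like gate followed with 15.35 CPM of Il17rc. Il17rd, a relative that tempers growth-factor signalling, averaged 13.3 ± 3.86 CPM in fibroblasts and 6.705 CPM in the tumour-like gate.

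Members with few UMIs were counted and not tested in most gates. Il20rb, highest on average in other T cells, owed this to 2 UMIs in Scramble 3 and had 487 UMIs in all, 84.2% of them in macrophages. Il9r had 57 UMIs, Il17re 53, Il23r 29, Il17rb 29, Il22ra2 26, Il5ra 14 and Il20ra 1. Il23r, known from IL-17-producing gamma-delta T cells, had 6 of its 29 UMIs in the gamma-delta T gate of 48 cells, and Il5ra, the eosinophil and basophil IL-5 receptor, had 6 of its 14 in the mast cell and basophil gate. Il22ra1 had no UMI in any library.

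Over all kept cells, the JAG2KO libraries had more RNA of 6 receptors and less of 3 than the Scramble libraries. By mean level, lymphocyte gates led for the 6 and myeloid gates for the 3, which does not say where most of their UMIs lay. UMIs were summed per library and compared by edgeR's quasi-likelihood test with Benjamini-Hochberg adjustment over 15100 genes, of which 6.85% passed at an adjusted p below 0.05 (3.71% rose and 3.15% fell). Of the 26 members that passed the filter on low counts, 6 rose (Il2ra, Il2rb, Il7r, Il18r1, Il12rb2, Il27ra) and 3 fell (Il4ra, Il17ra, Il1r2). The groups did not overlap for 17 members, against 37.4% of all genes, and the median log2 difference of the 26 was 0.175, against 0.00243 for all genes. A member expressed in few libraries passed the filter only where it was high, so these counts do not stand for all 36. Without JAG2KO 2, the library of low depth, 7 of the 9 were still called (adjusted p = 0.00973 to 0.0343), namely Il2ra, Il18r1, Il12rb2, Il2rb, Il7r and Il27ra with 1.62, 1.49, 1.68, 1.26, 0.90 and 0.95 on the log2 scale, and Il4ra with -0.71. Il1r2 and Il17ra did not pass, and Il2rg passed (0.73, adjusted p = 0.0159). In a sum over all cells, more cells of a type and more RNA per cell cannot be told apart.

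**Figure D2:**
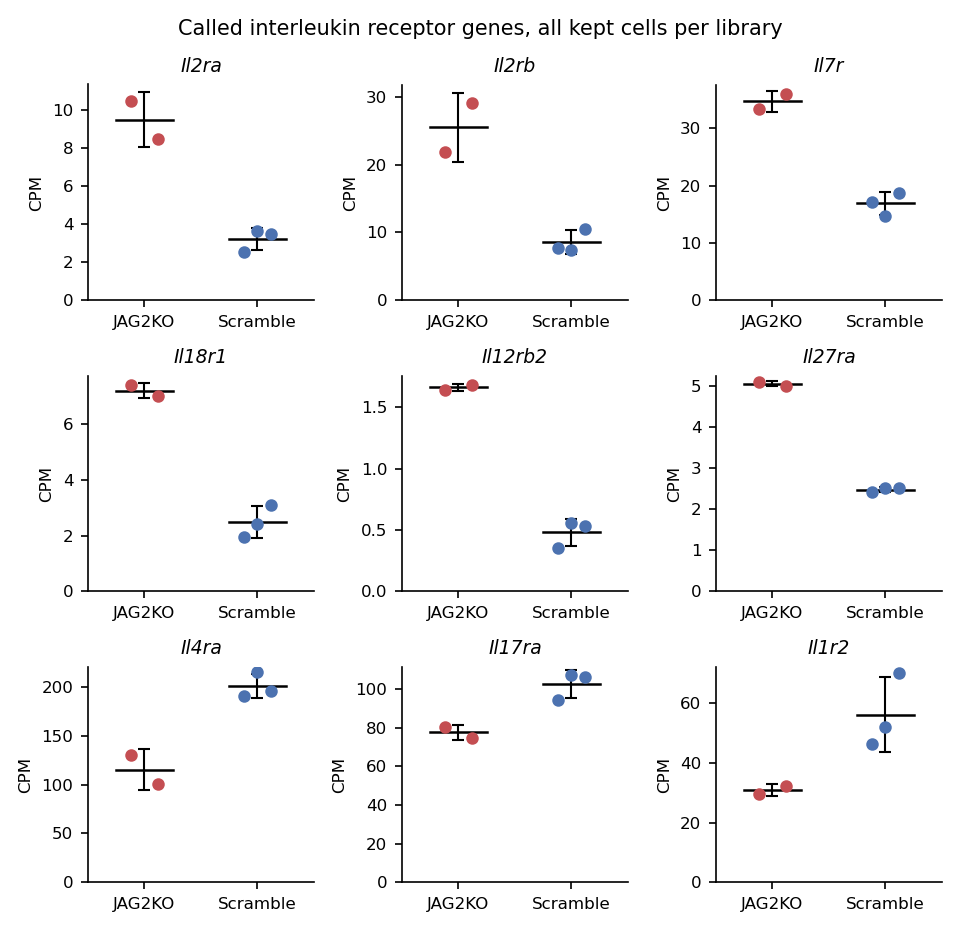
CPM (y axis, linear from 0) of the 9 called members over all kept cells, a panel per gene, with JAG2KO libraries in red on the left and Scramble libraries in blue on the right. Points are libraries, black lines are means and bars are SD (n = 2 and n = 3). In every panel the groups are apart, with Il12rb2 at 1.64 and 1.68 CPM in JAG2KO above the 3 Scramble libraries and Il4ra at 130 and 100 CPM below them.

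Among the chains for IL-2, Il2ra (ENSMUSG00000026770, chr2:11642807-11693193) stood at 10.5 and 8.45 CPM in JAG2KO, against 2.55, 3.62 and 3.47 CPM in Scramble. Il2rb (ENSMUSG00000068227, chr15:78479256-78495271) stood at 21.9 and 29.1 CPM in JAG2KO, against 7.77, 7.47 and 10.6 CPM in Scramble. Both JAG2KO libraries were above all 3 Scramble libraries for both genes, by 1.51 ± 0.17 for Il2ra and 1.53 ± 0.19 for Il2rb on the log2 scale (SE, adjusted p = 0.00428 and 0.00622, edgeR). The shared chain Il2rg stood at 112 and 77.8 CPM in JAG2KO, against 67.2, 64.0 and 59.0 CPM in Scramble, and did not pass (log2 difference 0.53 ± 0.13, adjusted p = 0.0633).

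Il7r (ENSMUSG00000003882, chr15:9505788-9530176) stood at 33.4 and 36.0 CPM in JAG2KO, against 17.2, 14.8 and 18.7 CPM in Scramble. The groups were apart by 1.0 ± 0.11 (adjusted p = 0.00507, edgeR). In every library more Il7r UMIs lay in the macrophage gate than in the T and NK gates. The counts were 974 and 1151 against 664 and 461 in JAG2KO, and 396, 449 and 425 against 156, 140 and 143 in Scramble. Il18r1 (ENSMUSG00000026070, chr1:40465552-40500854) stood at 7.40 and 7.02 CPM in JAG2KO, against 1.94, 2.43 and 3.09 CPM in Scramble. The difference of 1.49 ± 0.19 was larger than the spread in either group (adjusted p = 0.00608).

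Il12rb2 (ENSMUSG00000018341, chr6:67291318-67376188) stood at 1.64 and 1.68 CPM in JAG2KO, against 0.353, 0.554 and 0.534 CPM in Scramble. It had the largest rise of the members called, 1.75 ± 0.24 (adjusted p = 0.00905, edgeR), from the fewest UMIs, 381 in all libraries. Il27ra (ENSMUSG00000005465, chr8:84030294-84042589) stood at 5.10 and 5.01 CPM in JAG2KO, against 2.41, 2.51 and 2.51 CPM in Scramble. Its libraries were nearly level within each group and apart by 0.98 ± 0.12 (adjusted p = 0.00535). The macrophage gate held 249 and 212 Il27ra UMIs in JAG2KO and 119, 146 and 110 in Scramble. The T and NK gates held fewer, 146 and 83 in JAG2KO and 36, 36 and 30 in Scramble.

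Lymphocyte numbers and dendritic cell markers moved with these 6 genes. T and NK gates held 6.41% and 3.01% of kept cells in JAG2KO, against 1.72%, 1.26% and 1.49% in Scramble. All 7 T-cell markers and all 7 NK markers had non-overlapping, higher levels in JAG2KO, with summed T-marker levels of 117 to 172 CPM in JAG2KO and 25.3 to 30.9 CPM in Scramble. Of the 8 migratory dendritic cell markers 6 were higher without overlap (sums of 130 to 165 CPM in JAG2KO and 68 to 79.4 CPM in Scramble), as were 3 of the 5 cDC2 markers (60.5 to 93.6 CPM in JAG2KO and 37.9 to 54 CPM in Scramble), and their part in these results was not tested. Alternatives chosen after seeing the data left T and NK cells out by gate or by marker UMI. Neither removes T and NK RNA from cells in which no marker UMI was counted. Without the T and NK gates, Il7r (0.88), Il27ra (0.84), Il2ra (1.41), Il12rb2 (1.57) and Il18r1 (1.25) were still higher in JAG2KO (adjusted p = 0.0139 to 0.0465, edgeR), whereas Il2rb at 1.5 did not pass (adjusted p = 0.0865). Without any cell that had a UMI of a T or NK marker, Il7r (0.85), Il27ra (0.84), Il2ra (1.3) and Il12rb2 (1.5) were higher (adjusted p = 0.0171 to 0.0333), and Il18r1 at 1.02 and Il2rb at 1.92 did not pass (adjusted p = 0.166 and 0.0548).

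Il4ra (ENSMUSG00000030748, chr7:125552120-125579474) stood at 130 and 100 CPM in JAG2KO, against 191, 215 and 196 CPM in Scramble. Both JAG2KO libraries were below all Scramble libraries, and the fall was 0.85 ± 0.11 (log2 difference -0.85, adjusted p = 0.00805, edgeR). Il17ra (ENSMUSG00000002897, chr6:120463247-120487559) stood at 80.3 and 74.6 CPM in JAG2KO, against 94.0, 107 and 106 CPM in Scramble. Its difference of -0.45 ± 0.09 passed with all libraries (adjusted p = 0.0277) and did not pass without JAG2KO 1, JAG2KO 2, Scramble 2 or Scramble 3 (adjusted p = 0.0679 to 0.131).

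Il1r2 (ENSMUSG00000026073, chr1:40074079-40125231) stood at 29.6 and 32.3 CPM in JAG2KO, against 46.3, 52.1 and 70.3 CPM in Scramble. The difference of -0.90 ± 0.18 passed (adjusted p = 0.0292, edgeR), and did not without JAG2KO 1, JAG2KO 2 or Scramble 2 (adjusted p = 0.0677 to 0.107). Neutrophils, its main carriers, made up 1.86% and 1.29% of kept cells in JAG2KO, against 7.18%, 6.85% and 8.99% in Scramble, and of the 8 neutrophil markers 7 were lower and 1 was higher without overlap (summed level 462 to 846 CPM in JAG2KO and 1910 to 2080 CPM in Scramble). Within the neutrophil gate Il1r2 stood at 1501 and 1562 CPM in JAG2KO, against 1546, 1317 and 1684 CPM in Scramble, overlapping groups with a difference of 0.08 ± 0.20 (adjusted p = 0.958). Summed over kept cells without that gate, its difference was -0.33 (adjusted p = 0.318).

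Within the macrophage gate, Il7r was the member called, and Il4ra came close to the threshold in the other direction. Of 23 members tested there, 1 rose and none fell at an adjusted p below 0.05, while 1.1% of 14055 genes did (0.541% rose and 0.555% fell). DESeq2 called 6 of the same 23 (7.07% of all genes), and 11 had an unadjusted p below 0.05 (16.9% of all genes). The groups did not overlap for 14 members, against 32.6% of all genes, and the median log2 difference was 0.206, against -0.00278 for all genes.

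Il7r stood at 15.1 and 21.8 CPM in the macrophage gate of JAG2KO, against 6.28, 6.78 and 8.29 CPM in Scramble. The JAG2KO libraries were both above every Scramble library, by 1.37 ± 0.20 (SE, adjusted p = 0.0423, edgeR). The call did not hold without JAG2KO 2 or without any of the Scramble libraries (adjusted p = 0.052 to 0.161), while the log2 difference stayed between 1.04 and 1.5. After thinning to 1000 UMIs, an Il7r UMI was seen in 1.44% and 2.53% of macrophage-gate cells in JAG2KO, against 0.652%, 0.941% and 0.840% in Scramble. It was seen in at most 2.70% of cDC1 cells in any library, a gate of only 30 to 40 cells per library. Before thinning the macrophage shares were 9.14% and 6.71% in JAG2KO and 3.46%, 3.83% and 4.93% in Scramble, at median depths of 10056 and 2438.5 UMIs in JAG2KO and 9623 to 10155 UMIs in Scramble.

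RNA of T cells moved with Il7r inside the macrophage gate. All 7 T-cell markers were higher in JAG2KO without overlap and none was at 0 in a library, and their sum was 11.9 and 38.7 CPM in JAG2KO, against 3.36, 6.77 and 3.79 CPM in Scramble. Of the 5 cDC2 markers, 3 were also higher without overlap, with sums of 42.8 to 56.4 CPM in JAG2KO and 17.9 to 20.7 CPM in Scramble. Of the 8 migratory dendritic cell markers, 6 were higher and 1 lower without overlap, with overlapping sums of 15.2 to 42.1 CPM in JAG2KO and 17.6 to 29.5 CPM in Scramble, and Ccr7 stood at 1.82 and 6.37 CPM in JAG2KO, against 0.635, 0.816 and 1.13 CPM in Scramble. Per 100 UMIs of T-cell markers, the macrophage gate held 127 and 56.5 Il7r UMIs in JAG2KO and 187, 100 and 219 in Scramble, whereas the T and NK gates held 7.39 and 5.46 in JAG2KO and 8.34, 9.0 and 11.9 in Scramble. In macrophage-gate cells without any UMI of T or NK markers, Il7r was higher in JAG2KO by 1.33 (adjusted p = 0.0376, edgeR), an alternative chosen after seeing the data. This filter keeps cells that hold T-cell RNA but no counted marker UMI, which are likelier at the lower depth of JAG2KO 2. It therefore cannot set the T-cell part of the difference to 0. The part of cDC2 and migratory dendritic cell RNA in the Il7r difference was not tested.

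**Figure D3:**
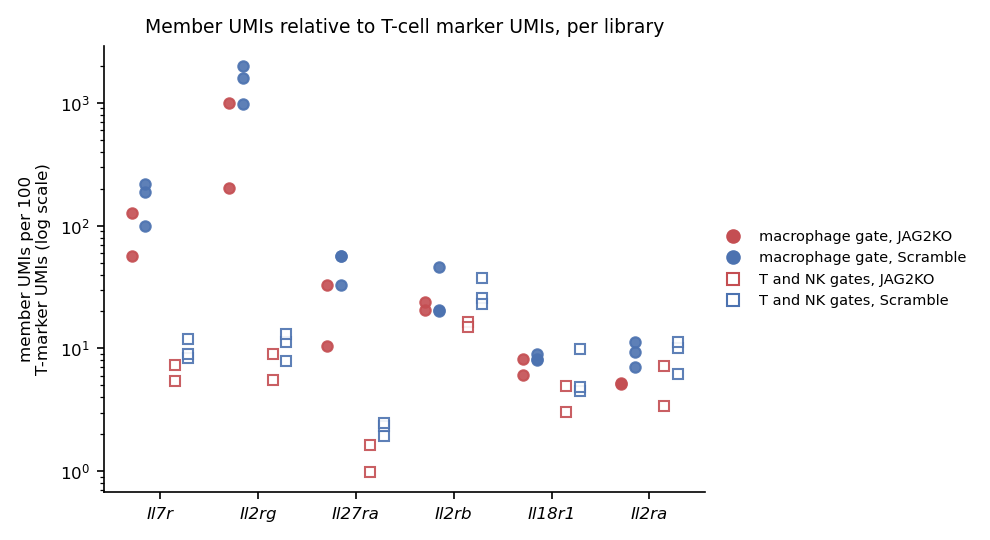
Member UMIs per 100 UMIs of the 7 T-cell markers (log scale, y axis) for 6 members (x axis), as filled circles in the macrophage gate and open squares in the T and NK gates, with JAG2KO libraries in red left of Scramble libraries in blue. Il7r, Il2rg and Il27ra have higher ratios in the macrophage gate than in the T and NK gates in all 5 libraries, whereas for Il2rb, Il18r1 and Il2ra the order of the gates differs between libraries (Il18r1 8.25 in Scramble 3 macrophages and 9.94 in Scramble 3 T and NK cells, 8.25 and 4.92 in JAG2KO 1).

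Il2rb and Il18r1 were near the low end of what was counted in macrophages. Il2rb stood at 2.86 and 7.98 CPM in JAG2KO, against 0.698, 1.36 and 1.74 CPM in Scramble, and Il18r1 at 0.978 and 2.35 CPM in JAG2KO, against 0.270, 0.604 and 0.312 CPM in Scramble. Neither passed in the macrophage gate (adjusted p = 0.103 and 0.102, edgeR), although the groups did not overlap. Per 100 T-marker UMIs, Il2rb had 24.1 and 20.7 UMIs in JAG2KO macrophages and 20.8, 20.1 and 45.9 in Scramble macrophages, against 16.5 and 14.9 in JAG2KO and 25.7, 22.9 and 37.4 in Scramble T and NK cells. Il18r1 had 8.25 and 6.08 in JAG2KO macrophages and 8.02, 8.93 and 8.25 in Scramble macrophages, against 4.92 and 3.02 in JAG2KO and 4.54, 4.89 and 9.94 in Scramble T and NK cells.

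**Figure D4:**
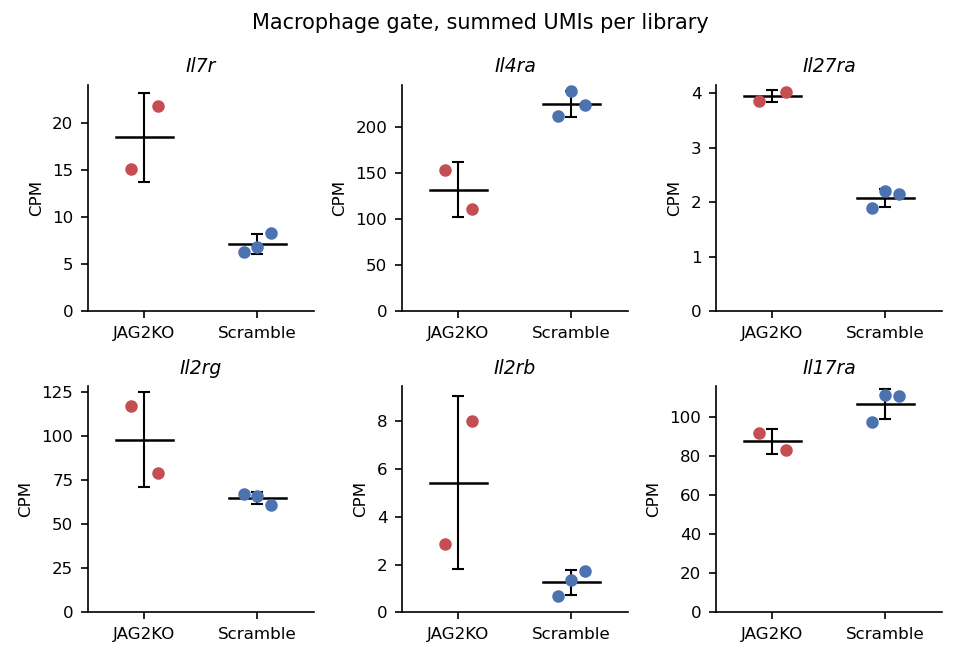
CPM (y axis, linear from 0) of 6 members in the macrophage gate, a panel per gene, with JAG2KO libraries in red on the left and Scramble libraries in blue on the right. Points are libraries, black lines are means and bars are SD (n = 2 and n = 3). Il7r at 15.1 and 21.8 CPM in JAG2KO lies above, and Il4ra at 153 and 110 CPM below, the 3 Scramble libraries.

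Il4ra stood at 153 and 110 CPM in the macrophage gate of JAG2KO, against 212, 239 and 224 CPM in Scramble. The groups were apart, yet the log2 difference of -0.79 ± 0.14 did not pass (adjusted p = 0.0535, edgeR), and it did pass by DESeq2 (-0.79, adjusted p = 3.45e-06), with doublets kept (adjusted p = 0.0486) and without JAG2KO 1 (adjusted p = 0.0172). After thinning, an Il4ra UMI was seen in 13.9% and 10.3% of macrophage-gate cells in JAG2KO, against 17.7%, 20% and 19.3% in Scramble (65.3% and 29.2%, against 71.1%, 72.3% and 73.4%, before thinning). Of the other gates, cDC2 cells had 93.4 and 72.6 CPM in JAG2KO, against 104, 141 and 175 CPM in Scramble, groups that did not overlap with a difference that did not pass (-0.72 ± 0.24, adjusted p = 0.229). In monocytes Il4ra stood at 148 and 138 CPM in JAG2KO, against 128, 160 and 138 CPM in Scramble, and in neutrophils at 186 and 143 CPM, against 138, 216 and 167 CPM, overlapping groups in both. The JAG2KO difference of Il4ra in a gate minus that in macrophages was positive in every gate compared, and none passed. It was 1.62 in other T, 1.47 in NK, 1.34 in fibroblasts and 1.07 in migratory dendritic cells (adjusted p = 0.0507, 0.198, 0.0890 and 0.173, edgeR). It was 1.08 in cDC1, 0.95 in regulatory T cells, 0.78 in monocytes, 0.58 in neutrophils and 0.05 in cDC2 cells.

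Other members of the macrophage gate with an unadjusted p below 0.05 did not pass after adjustment. Il27ra stood at 3.87 and 4.02 CPM in JAG2KO, against 1.89, 2.21 and 2.15 CPM in Scramble (log2 difference 0.91 ± 0.16, adjusted p = 0.0566, edgeR; DESeq2 adjusted p = 0.0017). Il2rg stood at 117 and 78.9 CPM in JAG2KO, against 67.4, 66.3 and 60.8 CPM in Scramble (0.58 ± 0.15, adjusted p = 0.112). Il17ra, at 92 and 83.2 CPM in JAG2KO and 97.7, 111 and 111 CPM in Scramble, and Il21r, at 63.3 and 58.1 CPM in JAG2KO and 67.4, 73.5 and 73.6 CPM in Scramble, went the other way without overlap (-0.30 ± 0.10 and -0.25 ± 0.08, adjusted p = 0.190 and 0.202). Il12rb2 at 1.88, Il2ra at 1.57 and Il6ra at 0.28 completed these members (adjusted p = 0.166, 0.245 and 0.293), and of these 3 the groups overlapped for Il2ra. Among members with a larger p, Il10rb, at 160 and 114 CPM in JAG2KO and 141, 128 and 129 CPM in Scramble, and Il13ra1, at 47.5 and 44.1 CPM in JAG2KO and 46.3, 47.3 and 47.9 CPM in Scramble, had overlapping groups.

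No member was called in the monocyte, neutrophil, cDC1, cDC2, migratory dendritic cell, regulatory T, other T, NK or fibroblast gate by edgeR or by DESeq2, where 0 to 4 members per gate had an unadjusted p below 0.05 (3.15% to 11.1% of all genes). The share of all genes called was 0.313% in monocytes, 0.597% in neutrophils, 0.279% in cDC1, 0.908% in cDC2, 0.0937% in migratory dendritic cells, 0.181% in regulatory T cells and 0.0216% in NK cells, and none was called in other T cells and fibroblasts. Groups that did not overlap were found for 5 of 13 members in neutrophils (29.6% of all genes), 4 of 11 in migratory dendritic cells (20.1%), 4 of 14 in regulatory T cells (19.6%), 2 of 13 in monocytes (25% of all genes), 2 of 11 in cDC2 (23.2%), 2 of 13 in NK cells (14.7%), 2 of 11 in fibroblasts (44.5%), 1 of 11 in other T cells (15.4%) and 0 of 7 in cDC1 (19.1%). Fibroblasts had 4 libraries, since Scramble 1 had 13 such cells and was left out.

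Among those 9 gates Il7r had its smallest p in monocytes, with 51.3 and 88.3 CPM in JAG2KO, against 24.1, 38.9 and 37.7 CPM in Scramble. The groups did not overlap and the difference of 0.96 ± 0.27 did not pass (adjusted p = 0.244, edgeR). In cDC2 cells it stood at 87.6 and 105 CPM in JAG2KO, against 28.7, 69.4 and 67.6 CPM in Scramble (0.73 ± 0.27, adjusted p = 0.339). In regulatory T cells, with 318 and 483 CPM in JAG2KO against 402, 332 and 297 CPM in Scramble, and in other T cells, with 494 and 267 CPM against 332, 128 and 451 CPM, the groups overlapped.

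Il2rb stood at 1153 and 974 CPM in NK cells of JAG2KO, against 985, 973 and 1240 CPM in Scramble, overlapping groups with a difference of 0.04 ± 0.23. Il2ra stood at 937 and 519 CPM in regulatory T cells of JAG2KO, against 494, 588 and 721 CPM in Scramble, which overlapped as well (0.36 ± 0.23, adjusted p = 0.883, edgeR). In NK cells, where it is low, Il2ra stood at 7.90 and 28.0 CPM in JAG2KO and 13.6, 69.0 and 129 CPM in Scramble (-1.90 ± 0.66, adjusted p = 0.999). The JAG2KO difference in each gate was also set against that in the macrophage gate in 1 edgeR fit over 9818 genes. Members differed in NK cells (Il2rb, Il18r1), other T cells (Il2rb) and regulatory T cells (Il2rb), where 0.194%, 0.194% and 0.0509% of all genes did. No member differed in monocytes (0.0306% of genes), neutrophils (0.143%), cDC1 and cDC2 (0.0509% each), migratory dendritic cells (0.0815%) or fibroblasts (0.866%). CD8 T and CD4 T gates had at least 20 cells in a library only in JAG2KO and were not tested.

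**Figure D5:**
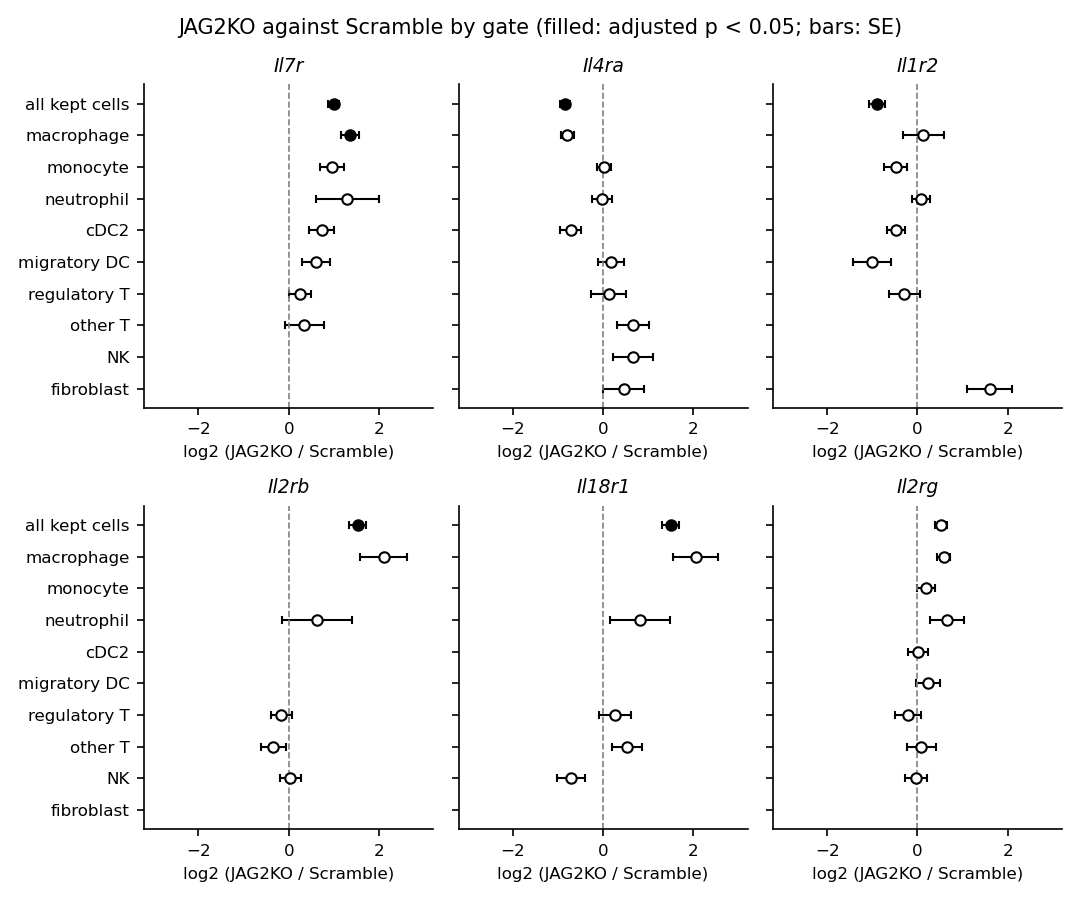
Log2 difference of JAG2KO over Scramble (x axis) by edgeR for 6 members, a panel each, over all kept cells and in 9 gates (y axis); bars are SE, filled points have an adjusted p below 0.05 and a missing point means that the gene did not pass the filter on low counts there. Il7r lies right of 0 in all 8 sets of cells in which it was tested. Il4ra lies at -0.85 over all cells, -0.79 in macrophages, -0.72 in cDC2 cells, -0.03 in neutrophils and 0.02 in monocytes. Il1r2 lies at 0.08 in neutrophils against -0.90 over all cells.

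The other genes of these pathways were described as 4 lists. Over all kept cells, 4 of the 10 genes known to respond to IL-4 and IL-13 rose and 1 fell (3.71% and 3.15% of all genes, median 0.61, against 0.00243 for all genes). Retnla, a marker of alternative activation, stood at 319 and 111 CPM in JAG2KO, against 5.02, 12.2 and 22.2 CPM in Scramble (3.98 ± 0.62, adjusted p = 0.0138, edgeR). Mgl2, Ccl17 and Ccl22 rose by 1.59, 1.55 and 1.75 (adjusted p = 0.0174, 0.00512 and 0.00116), and Arg1, arginase, fell by 0.77 (log2 difference -0.77, adjusted p = 0.0485). Ccl22 is also a marker of the migratory dendritic cell gate, whose 8 markers included 6 that were higher in JAG2KO over all cells without overlap. Cd209a, another of the 10, is a marker of the cDC2 gate. Of its 5 markers, 3 were higher without overlap over all cells and 3 in the macrophage gate.

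Within the macrophage gate none of the 10 passed, 8 had an unadjusted p below 0.05 (16.9% of all genes), and the median was 1.27. Retnla stood there at 316 and 125 CPM in JAG2KO, against 4.27, 11.3 and 25.7 CPM in Scramble, groups without overlap (3.98 ± 0.70, adjusted p = 0.0549, edgeR). Mrc1, the mannose receptor, stood at 1167 and 682 CPM in JAG2KO, against 1258, 1194 and 1326 CPM in Scramble (-0.47 ± 0.21, adjusted p = 0.313). In neutrophils Mgl2 and Retnla rose and Chil3 fell (3.75, 3.43 and -2.38, adjusted p = 0.00523, 0.00784 and 0.00456).

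Of the 35 ligand genes, 20 were tested over all kept cells, where 2 rose and 1 fell, against 3.71% and 3.15% of all genes. Il13 stood at 1.5 and 1.71 CPM in JAG2KO, against 0.379, 0.0943 and 0.159 CPM in Scramble (2.88 ± 0.46, adjusted p = 0.0152, edgeR). Ebi3, the subunit of IL-27 and IL-35, rose by 0.49 ± 0.08, and Il33, an alarmin, fell by 0.96 ± 0.18 (log2 difference -0.96, adjusted p = 0.0237). In the macrophage gate Ebi3 rose by 0.65 ± 0.09 (adjusted p = 0.0395), and in neutrophils Il1a, a ligand of the IL-1 receptors, rose by 1.12 ± 0.23 (adjusted p = 0.0209).

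Of the 22 signalling genes, all tested over all kept cells, 3 rose and 1 fell, against 3.71% and 3.15% of all genes. Those that rose were the feedback inhibitors Socs1 (0.91), Socs2 (1.18) and Cish (1.04), with adjusted p = 0.0116, 0.0224 and 0.0477 (edgeR). Jak3, the kinase that binds the common gamma chain, fell by 0.51 ± 0.09 (log2 difference -0.51, adjusted p = 0.0216). Within the macrophage gate Socs1 stood at 9.88 and 8.06 CPM in JAG2KO, against 4.68, 4.88 and 5.05 CPM in Scramble (0.87 ± 0.12, adjusted p = 0.0395), and Jak3 at 12.4 and 12.2 CPM, against 17.2, 18.2 and 19.2 CPM (-0.58 ± 0.09, adjusted p = 0.0481). Cish, a target of STAT5, rose in neutrophils by 2.08 ± 0.28, in monocytes by 1.36 ± 0.22 and in cDC2 cells by 1.24 ± 0.24 (adjusted p = 0.000788, 0.0232 and 0.00865). Of 14 accessory subunits, paralogs and decoys tested over all cells, none rose (3.71% of all genes) and 1 fell (3.15% of all genes). Il1rap, the partner chain of the IL-1 receptor, fell by 0.52 ± 0.09 (log2 difference -0.52, adjusted p = 0.0175).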

How the data were processed

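The authors deposited raw UMI counts per gene and barcode for each library, made with cellranger 6.0.0 per the file headers. Per the submitters' processing notes, Seurat and the build GRCm38 (mm10) were used, with no step named. Cells were dropped below 500 UMIs, below 250 genes or above 10% mitochondrial UMIs, as were the 8% of each library with the highest simulated-doublet score. Gates for 19 cell types asked for a set number of markers. Cells with over 0.5% macrophage-marker UMIs entered no other gate, and cells that met several gates stayed ungated. These thresholds were set on the markers' UMIs once the marker levels were seen. The members, marker lists and pathway lists were chosen with earlier results of these data known.

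Counts were summed per library, over all kept cells or over a gate with at least 20 cells in the library. JAG2KO was compared with Scramble by edgeR 4.0.16 (quasi-likelihood test, TMM, filterByExpr, R 4.3.3), with Benjamini-Hochberg adjustment over all genes tested and a threshold of 0.05. The library was the replicate, and a gate needed 2 libraries per group. Gates were compared with the macrophage gate, and JAG2KO differences between gates, in 1 edgeR fit each with the library as a block. An exact permutation test of 3 against 2 libraries cannot go below p = 0.1 and was not used. Members named with values are those called in a comparison of JAG2KO and Scramble and those with at least 100 UMIs, by their highest gate, and up to 4 called genes of a pathway list. Il4ra in neutrophils and monocytes and its differences between gates were chosen after their values were seen. So were the second gates of Il1r2, Il2ra, Il7r and Il12rb2, and the members of the macrophage gate with an unadjusted p below 0.05.

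Alternatives were DESeq2 1.42.0, no filter on low counts, thinning, other cell filters, doublets kept, a stricter gate, the replicate number as a block and leaving out each library. Those chosen after seeing the data were sums without neutrophil, T or NK cells and, between gates, library totals and leaving out each library. Fits of the macrophage and NK gates were also run on counts simulated under edgeR's own model. Since that model was assumed, they cannot show that it holds for these data. Depth per library and per cell is given with the results, and levels from few UMIs are the least precise. Sums and shares used Python 3.11.15 with numpy 2.4.6, scipy 1.17.1, pandas 2.3.3 and scikit-learn 1.9.0.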

Additional observations from a re-analysis of the deposited data

Results flagged for a closer look

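The JAG2KO difference of 2 members was not the same in lymphocyte gates as in the macrophage gate by a test of that difference itself (edgeR, adjusted over 9818 genes). For Il2rb, the chain that signals for IL-2 and IL-15, the difference in the NK gate minus that in macrophages was -1.94 ± 0.36 on the log2 scale (SE, adjusted p = 0.00919). It was -2.23 ± 0.37 for other T cells (adjusted p = 0.00269) and -2.12 ± 0.39 for regulatory T cells (adjusted p = 0.0126). Within each gate, JAG2KO over Scramble stood at 0.04, -0.34 and -0.16 in NK, other T and regulatory T cells, against 2.10 in macrophages, and none of the 4 passed alone. For Il18r1, the IL-18 binding chain, the difference in NK cells minus that in macrophages was -2.57 ± 0.51 (adjusted p = 0.0190), with -0.70 in NK cells and 2.05 in macrophages.

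Both genes are lymphocyte genes with few UMIs in macrophages, 184 and 421 of Il2rb in JAG2KO and 44, 90 and 89 in Scramble. Summed T-cell markers moved with them in that gate, at 11.9 and 38.7 CPM in JAG2KO and 3.36, 6.77 and 3.79 CPM in Scramble. Per 100 T-marker UMIs, macrophages held 8.25 and 6.08 Il18r1 UMIs in JAG2KO and 8.02, 8.93 and 8.25 in Scramble, against 4.92 and 3.02 in JAG2KO T and NK cells and 4.54, 4.89 and 9.94 in Scramble T and NK cells. The differences between gates were not refitted in cells without T or NK marker UMIs, and the part of T-cell RNA in them was not tested.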

How the results depend on the processing

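Over all kept cells 9 members were called, and 7 to 12 under the alternatives run. In the macrophage gate the 1 call became 6 with DESeq2, 6 with no filter on low counts, 3 in cells with no T or NK marker UMI, 2 with thinned sums, 2 with doublets kept and 0 at most 5% mitochondrial UMIs, and 0 to 4 when leaving out each library. Among all genes, 154 were called there, against 993 with DESeq2, 911 with no filter, 78 at most 5% mitochondrial UMIs and 5 to 369 leaving out each library. Over all cells 1035 were called, against 1642 with DESeq2, 1714 with no filter and 382 to 944 leaving out each library. Without the filter, 1 monocyte (Il7r, 0.93, adjusted p = 0.00259) and 2 fibroblast members were called, and leaving out each library gave 0 to 1 in fibroblasts (Il11ra1, 1.70 without JAG2KO 2). Only 2 replicate numbers are shared and no label ties them to a pairing. Deviations of same-numbered libraries correlated at 0.165 and 0.027 over all cells, 0.022 and 0.226 in macrophages and -0.147 and -0.09 in other T cells. With 2 JAG2KO libraries, each Scramble library has the opposite value with the other JAG2KO library by construction. These values therefore cannot decide on a pairing. With the number as a block, 8 members were called over all cells (Il17ra lost, -0.42, adjusted p = 0.0570), 2 in macrophages (285 genes), 1 in monocytes (Il7r, 1.13) and 1 in migratory dendritic cells (Il1r2, -1.32). Against the macrophage gate, library totals gave Il4ra in neutrophils -0.15 in place of 0.61, and 6 members lower there in place of 3. Leaving out each library gave 1 to 2 higher in cDC1 (1 with all), 1 to 6 in mast cells and basophils (5 with all) and 2 to 4 in the tumour-like gate (4 with all), and the counts of 2, 1 and 2 were those without JAG2KO 1. The leading gate was the same for 19 of 24 members with a stricter gate and for 23 with doublets kept. Of the single-gene alternatives, 432 kept their direction and side of the threshold, 32 newly passed, 19 no longer passed and 1 reversed, and the causes were not tested. Few libraries, the lower depth of JAG2KO 2 and small gates limit all values. A block fit for fibroblasts, a fit at most 5% mitochondrial UMIs for other T cells and fibroblasts, and a stricter gate for cDC2 and fibroblasts gave no value.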
